A study of Drosophila melanogaster with 8 samples.

Results

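The Toll and Imd pathways are the NF-κB signalling cascades of insect immunity, and 33 genes of these cascades are described here in 2 laboratory strains of Drosophila melanogaster. The genes were chosen by name, from the extracellular proteases to the nuclear factors, and 32 of them had a row in the authors' deposited table, out of 14701 gene IDs in all. The receptor gene 18w could not be matched to a row by its current gene ID and is not analysed here. All 32 matched genes had a p-value, and none of their IDs stood on more than 1 row.

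RNA came from heads and thoraxes, without abdomens, of mated females aged 10 days and kept at 25 °C. Dahomey and Oregon R were each represented by 4 libraries of 60 pooled flies, with no transgene or treatment named for either strain. No infection is named for the flies either. The authors' deposited table compares the strains as a whole, with 1 mean, 1 log2 fold change and 1 standard error (SE) per row. No value of a single library enters these results: the error given is the authors' SE, the depth of each library as counted is unknown, and overlap between the libraries of both strains could not be read. The sign of the fold change was taken from the table's name, which puts Dahomey first, so positive values were read as higher in Dahomey; the headers do not state it, and with the reverse sign every direction here would turn.

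In the Toll pathway, a chain of serine proteases in the hemolymph cuts the cytokine Spätzle, which binds the receptor Toll. Inside the cell the adaptor Myd88 joins Tube and the kinase Pelle, the inhibitor Cactus is destroyed, and the NF-κB factors Dorsal and Dif enter the nucleus. In the Imd pathway, peptidoglycan receptors recruit Imd, Fadd and the caspase Dredd, ubiquitin chains bring in the kinases, and the NF-κB factor Relish is cut and activated. Both act in fat body, blood cells and epithelia and switch on antimicrobial peptide genes.

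Dahomey had the higher level for 6 of the 32 genes and Oregon R for 5, by the authors' DESeq2 adjusted p under 0.05, and 21 genes missed that threshold. The 11 that passed are 34.4% of the list, beside 29.4% of the 13395 rows with a p-value that passed in the authors' deposited table. Every matched gene had a mean normalized count of at least 100, and among the 9607 rows with such a mean 36.8% passed (18.2% higher in Dahomey, 18.6% higher in Oregon R). The share of the list is close to both. By direction, each strain was the higher in 14.7% of all rows. The median log2 fold change was 0.01 over the 32 genes and -0.01 over all rows with a p-value. Most differences were modest, with a median absolute log2 change of 0.27 over the 11 genes, beside 0.42 over all rows that passed. Of the 32 genes, 2 passed with a difference of at least 1.5-fold, Tehao and psh. Among all 13395 rows with a p-value, 1352 did so, or 10.1%. The plot of members by role shows both genes apart from the rest of the list.

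**Figure D1:**
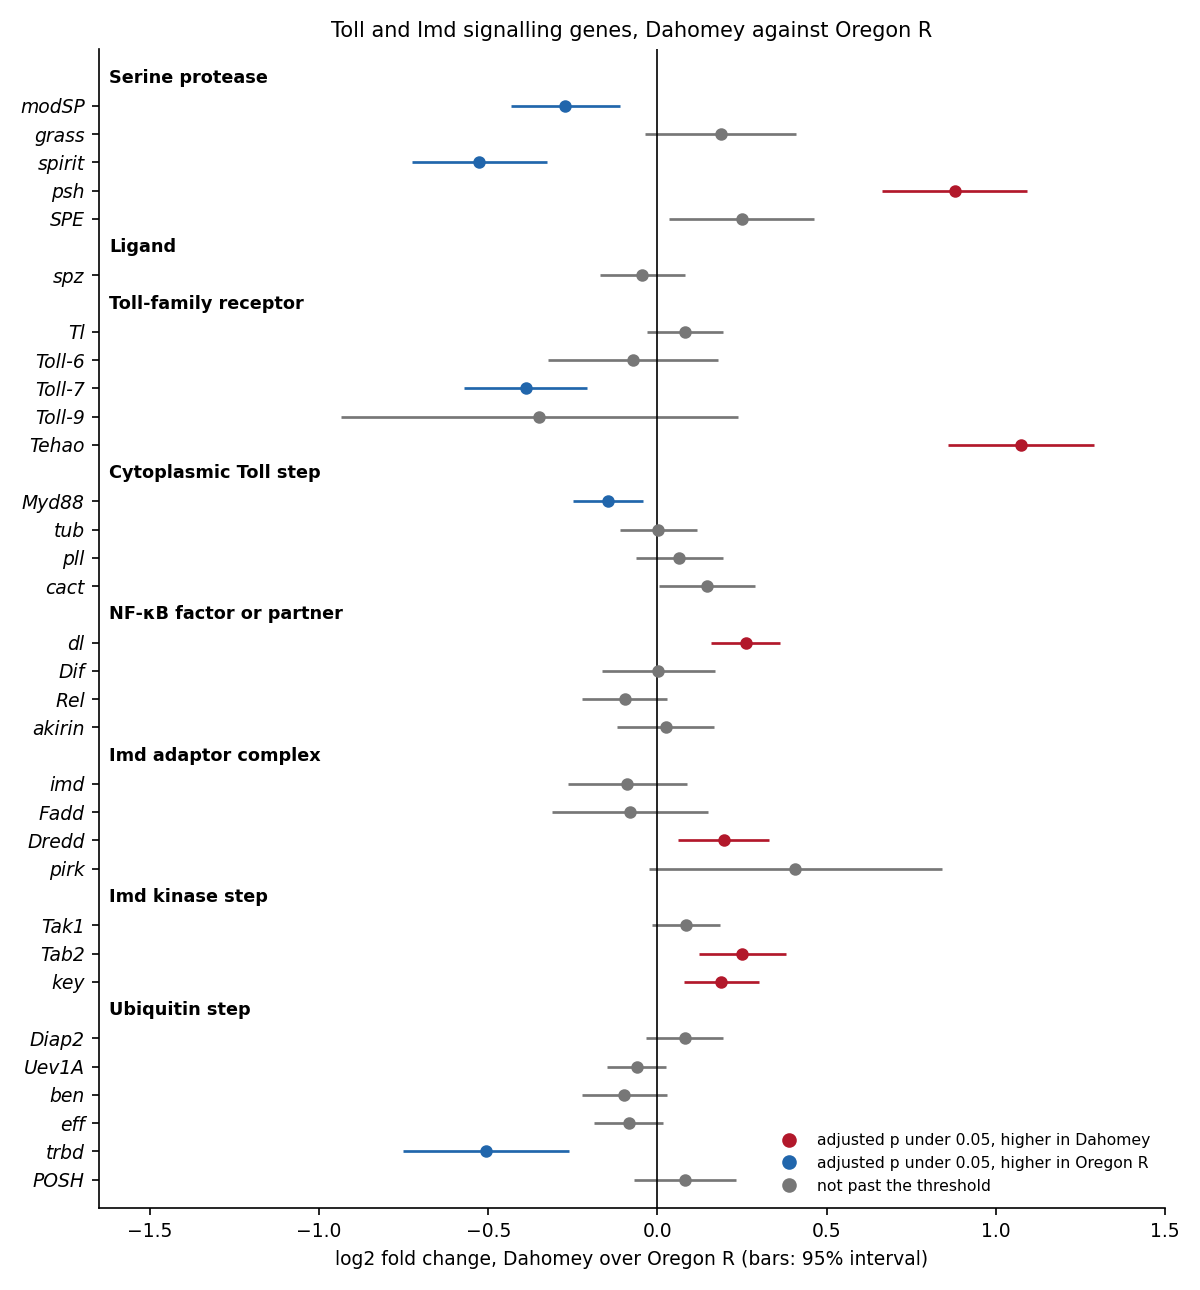
Log2 fold change of each of the 32 signalling genes (horizontal axis, Dahomey over Oregon R), grouped by role; bars are 95% intervals. Tehao at 1.08 and psh at 0.88 lie farthest to the right, spirit at -0.53 and trbd at -0.51 farthest to the left, and 21 genes in grey did not pass the threshold.

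The proteases that lead to Toll differed in both directions, with psh higher in Dahomey, modSP and spirit higher in Oregon R, and grass and SPE short of the threshold. Persephone, encoded by psh (FBgn0030926, X chromosome), senses proteases released by microbes and feeds into the chain by its own branch. Its log2 fold change in the authors' deposited table was 0.88 ± 0.11 (SE; adjusted p = 2.02e-14, authors' DESeq2 test). With the mean of 6639 normalized counts, that fold change implies about 8602 in Dahomey and 4676 in Oregon R, when the deposited mean is split between the strains by the fold change. This is a ratio of 1.84 with a 95% interval from 1.59 to 2.13. Among rows with a mean of at least 100, 5.09% had a larger absolute change.

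The 2 lower proteases act elsewhere in the chain. The modular protease gene modSP (FBgn0051217, arm 3R) encodes the first protease after pattern recognition and had -0.27 ± 0.082 in the authors' deposited table (adjusted p = 0.00436, authors' DESeq2 test). Its implied means were 7253 in Dahomey and 8759 in Oregon R, a 1.21-fold difference toward Oregon R. The gene spirit (FBgn0030051, X chromosome), a clip-domain protease found upstream of Spätzle cleavage by RNA interference, had -0.53 ± 0.10 in the authors' deposited table (adjusted p = 2.5e-06, authors' DESeq2 test). For spirit the implied means were 1151 and 1658, so Oregon R was 1.44-fold higher with a 95% interval from 1.25 to 1.65. Both psh and spirit lie on the X chromosome and their intervals lie on opposite sides of 0.

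The proteases encoded by grass and SPE did not pass. The gene grass encodes a protease downstream of ModSP; it had a log2 fold change of 0.19 with a 95% interval from -0.04 to 0.41 around the value in the authors' deposited table. SPE, the enzyme that cuts Spätzle, had 0.25 ± 0.11 in the authors' deposited table, with an unadjusted p of 0.0223 and an adjusted p of 0.0709 by the authors' DESeq2 test. Exons of CG18754 cover 8.45% of the SPE exons on the same strand in the BDGP6 annotation; how shared reads were counted is not stated. The ligand gene spz had -0.04 ± 0.065 in the authors' deposited table, and its interval from -0.17 to 0.08 leaves out differences of 1.5-fold in either direction. The implied means of spz were 5691 in Dahomey and 5869.6 in Oregon R, which lie close together.

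Among the 5 Toll-family receptor genes with a row, Dahomey had more Tehao and Oregon R more Toll-7, and 3 genes missed the threshold. Tehao, also known as Toll-5, is the family member closest to Toll. It had the largest absolute fold change of the 32 genes, with 1.08 ± 0.11 in the authors' deposited table (FBgn0026760, arm 2L; adjusted p = 6.02e-21, authors' DESeq2 test). The mean of 983 normalized counts and that fold change imply about 1333 in Dahomey and 633 in Oregon R, a ratio of 2.11 with a 95% interval from 1.81 to 2.45. Only 3.54% of rows with a mean of at least 100 had a larger absolute change. In the BDGP6 annotation, exons of the antisense RNA gene asRNA:CR45683 cover 63.1% of the Tehao exon length. That antisense gene has no row of its own, no source states whether counting used strand, and its part in the Tehao value was not tested.

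Toll-7, a receptor with reported roles in antiviral defence and in shaping neurons and epithelia, had -0.39 ± 0.093 in the authors' deposited table (FBgn0034476, arm 2R; adjusted p = 0.00018, authors' DESeq2 test). Its implied means were 1343 in Dahomey and 1759 in Oregon R, a 1.31-fold difference. The receptor Toll itself, encoded by Tl, had 0.08 ± 0.057 in the authors' deposited table, and its 95% interval ran from -0.03 to 0.19. Toll-6, a neurotrophin receptor in the fly nervous system, had an interval from -0.32 to 0.18. Toll-9 had -0.35 ± 0.30 at a mean of only 124 in the authors' deposited table; the interval from -0.94 to 0.24 is the widest of the list and does not leave out a 1.5-fold difference.

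Inside the cell, 1 of 4 genes of the Toll steps passed. Myd88, the adaptor with a death domain that binds the Toll receptor, was that gene, at -0.15 ± 0.053 in the authors' deposited table (FBgn0033402, arm 2R; adjusted p = 0.0225, authors' DESeq2 test). The implied means of Myd88 were 6877 and 7612, a 1.11-fold difference toward Oregon R, and 51.7% of rows with a mean of at least 100 had a larger absolute change. Its partners tub, an adaptor, and pll, the kinase, had 0.00 ± 0.058 and 0.07 ± 0.065 in the authors' deposited table, with 95% intervals from -0.11 to 0.12 for tub and from -0.06 to 0.19 for pll. The inhibitor gene cact had 0.15 ± 0.072 in the authors' deposited table, with an unadjusted p of 0.043 and an adjusted p of 0.121 by the authors' DESeq2 test.

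Of the 3 NF-κB genes, dl alone passed. Dorsal, encoded by dl, patterns the embryo from maternal RNA and acts with Dif in larval immunity; the gene had 0.26 ± 0.052 in the authors' deposited table (FBgn0260632, arm 2L; adjusted p = 4.32e-06, authors' DESeq2 test). Its implied means were 13915 in Dahomey and 11615 in Oregon R, a ratio of 1.20 with a 95% interval from 1.12 to 1.29. Dif, the main Toll factor of adult flies, had 0.00 ± 0.086, and Rel, the factor of the Imd pathway, had -0.10 ± 0.064 in the authors' deposited table. The intervals ran from -0.16 to 0.17 for Dif, from -0.22 to 0.03 for Rel and from 0.16 to 0.36 for dl. Those of Dif and dl overlap. A test of the difference between genes was not run. The gene akirin encodes a nuclear partner of Relish, and its interval ran from -0.12 to 0.17.

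RNA of egg and ovary genes was counted although abdomens were left out. The means over all libraries do not show in how many libraries it was found. All 8 ovary and egg markers (Cp36, Cp38, Vm26Aa, Vm26Ab, osk, nanos, bcd and vas) had means of 357 to 11153 in the authors' deposited table. None of the 8 had a p-value, their SE ran from 0.36 to 0.39, and their log2 fold changes ran from -0.36 to 0.18. Several listed genes (dl, Tl, spz, tub, pll and cact) are known to be supplied to the egg, and the part of ovary RNA in their values was not tested. In such bulk samples, fewer cells of a type and less RNA per cell cannot be told apart.

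In the Imd adaptor complex 1 of 4 genes passed and in the kinase step 2 of 3, all higher in Dahomey. Of the 15 Imd genes, 4 passed, or 26.7%, and of the 17 Toll genes 7, or 41.2%. The share was 29.4% over all rows with a p-value and 36.8% over those with a mean of at least 100. Among the 4 Imd genes, trbd in the ubiquitin step was higher in Oregon R. Dredd, the caspase that cuts Imd and Relish, had 0.20 ± 0.069 in the authors' deposited table (FBgn0020381, X chromosome; adjusted p = 0.018, authors' DESeq2 test), which implies 3763 normalized counts in Dahomey and 3286 in Oregon R. Tab2, which carries the kinase Tak1 to ubiquitin chains, had 0.25 ± 0.066 in the authors' deposited table (FBgn0086358, arm 2R; adjusted p = 0.000873, authors' DESeq2 test), with implied means of 8549 and 7182. Kenny, the regulatory subunit of the IκB kinase, is encoded by key, which had 0.19 ± 0.056 in the authors' deposited table (FBgn0041205, arm 2R; adjusted p = 0.00408, authors' DESeq2 test), with implied means of 7231 and 6344. These 3 differences were 1.14-fold to 1.19-fold, and 32.1% to 42.4% of rows with a mean of at least 100 had larger absolute changes.

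The other genes of these steps did not pass. Tak1, the kinase bound by Tab2, had 0.08 ± 0.051 in the authors' deposited table and an interval from -0.02 to 0.19. The adaptor gene imd had an interval from -0.26 to 0.09 and Fadd, which links Imd to Dredd, one from -0.31 to 0.15. The gene pirk encodes an inhibitor that draws peptidoglycan receptors away from the cell surface and is itself induced by the Imd pathway. Its value of 0.41 ± 0.22 in the authors' deposited table was the third highest of the list, at an adjusted p of 0.169 by the authors' DESeq2 test. The interval of pirk ran from -0.03 to 0.84. The SE of pirk was 1.73 times the median SE of the 200 rows nearest in mean, the highest such ratio of the 32 genes.

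Among the 6 ubiquitin genes, trbd alone passed. Trabid, its product, is a deubiquitinase reported to remove ubiquitin chains from Tak1 and so to restrain Imd signalling. In the authors' deposited table trbd had -0.51 ± 0.13 at a mean of 19968 (FBgn0037734, arm 3R; adjusted p = 0.000355, authors' DESeq2 test). The implied means were 16499 in Dahomey and 23437 in Oregon R, a 1.42-fold difference toward Oregon R with a 95% interval from 1.20 to 1.68. Its SE was 1.65 times the median of rows of like mean, and 96.5% of those rows had a lower SE. The ligase gene Diap2, the conjugating enzyme genes eff, ben and Uev1A, and POSH, a ligase reported to act on Tak1, had log2 fold changes from -0.10 to 0.08 in the authors' deposited table. Uev1A had the smallest SE of the list, 0.044, and an interval from -0.15 to 0.02.

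Over the 21 genes that did not pass, the 95% intervals of 19 left out a 1.5-fold difference in either direction, the exceptions being Toll-9 and pirk. For 13 of the 21, the whole interval lay within 0.25 of 0 on the log2 scale. Of these 21 genes, 2 (SPE and cact) had an unadjusted p under 0.05. In the plot of signalling genes among all rows, 29 of the 32 had a mean of at least 900 normalized counts.

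**Figure D2:**
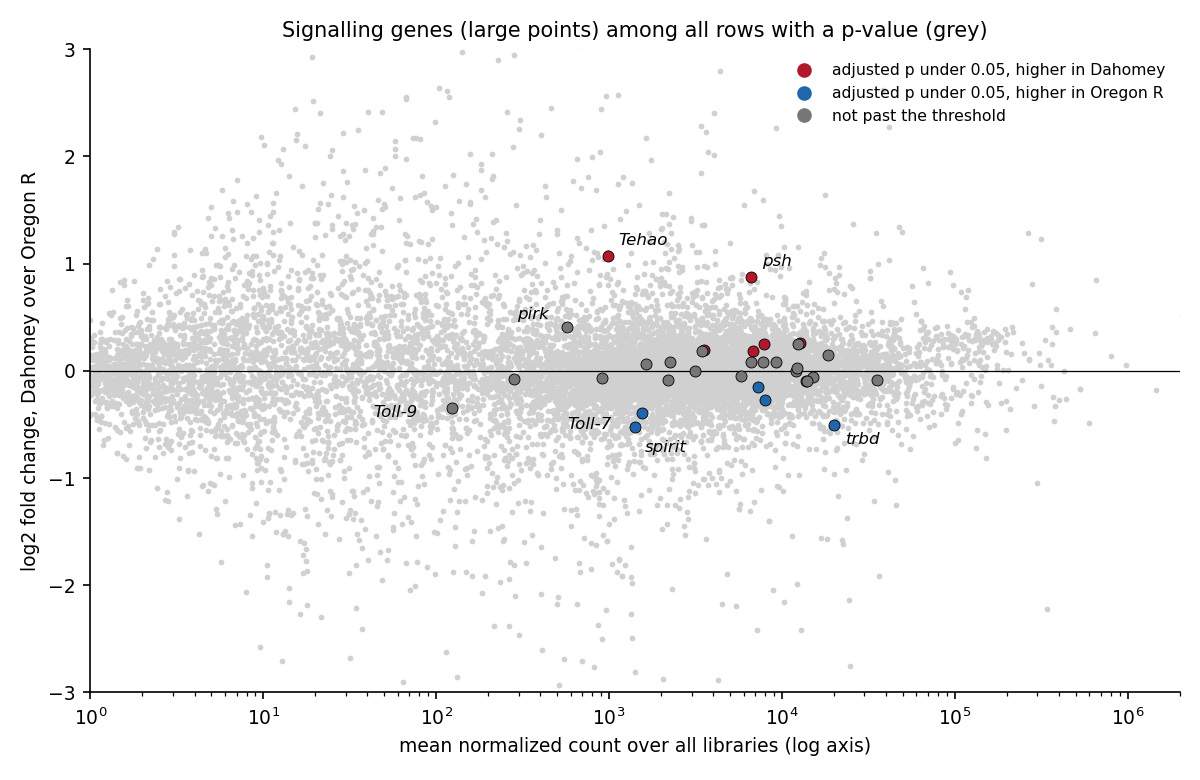
Log2 fold change (vertical axis, Dahomey over Oregon R) against the mean normalized count over all libraries (horizontal log axis) for all rows with a p-value in grey and the 32 signalling genes as large points; 883 grey rows lie outside the axes. Most signalling genes sit at means above 900 and close to 0, with Tehao at 1.08 and psh at 0.88 above the others.

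Levels between genes were compared per kilobase of exon, with exon lengths from the BDGP6 annotation and means from the authors' deposited table. The median level of the 32 genes was 2034 normalized counts per kilobase, beside 689 for 12961 genes with a p-value and an exon length. The highest level was that of eff, a conjugating enzyme gene of broad use, at 15028 per kilobase, followed by SPE at 9728, Uev1A at 8905 and ben at 6756. Further down, cact stood at 5542, key at 4777, psh at 4036 and Rel at 3912 per kilobase. Dif and dl had close levels per kilobase, 2114 and 1985; the table gives no error for a level, so neighbours in this order cannot be said to differ. Toll-family receptors other than Toll had the lowest levels with Fadd and pirk: Tehao stood at 309, Toll-7 at 243, Toll-6 at 119 and Toll-9 at 35.4 per kilobase, against 1275 for Tl. The level of Tehao per kilobase implied 419 in Dahomey and 199 in Oregon R, beside 210.0 and 275 for Toll-7. Without an error for these levels, the order of Tehao and Toll-7 within a strain cannot be called.

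**Figure D3:**
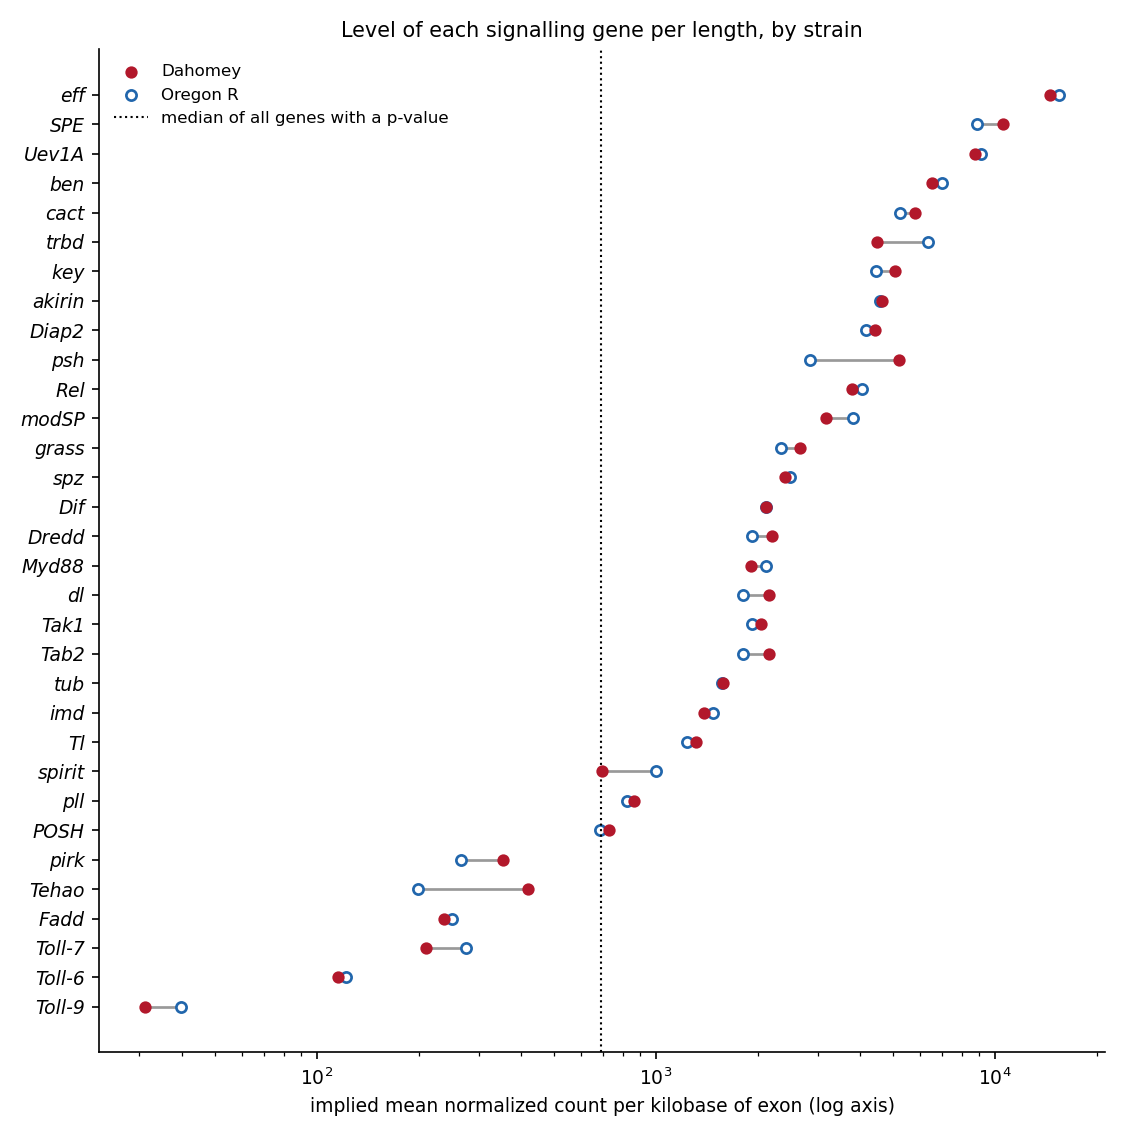
Implied mean normalized count per kilobase of exon (horizontal log axis) in Dahomey (filled) and Oregon R (open) for each signalling gene, ordered by its mean over both strains; the dotted line is the median of all genes with a p-value, 689. The levels run from 35.4 for Toll-9 to 15028 for eff, and the pairs of points lie farthest apart for Tehao and psh.

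A wider list of 68 genes held receptors, proteases, regulators and the JNK branch of the same pathways, of which 67 had a row and 62 a p-value. Dahomey was higher for 13 of these 62 and Oregon R for 7, and 42 missed the threshold, which is 32.3% past it beside the 29.4% of all rows. The genes named here are those of smallest p in each direction. PGRP-LF, a receptor that blocks Imd signalling, had 0.79 ± 0.12 in the authors' deposited table (adjusted p = 1.78e-10, authors' DESeq2 test). PGRP-SD, a secreted peptidoglycan sensor, had 1.47 ± 0.12, and PGRP-SC2, an enzyme that degrades peptidoglycan, had -1.31 ± 0.11 in the authors' deposited table. IKKbeta, the catalytic partner of Kenny, had 0.47 ± 0.082 in the authors' deposited table (adjusted p = 1.71e-07, authors' DESeq2 test), so both subunits of that kinase were higher in Dahomey. Exons of a gene on the same strand cover 8.08% of the IKKbeta exons, and exons on the other strand cover 44.4% of those of PGRP-LF, in the BDGP6 annotation.

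On the Toll side of the wider list, GNBP1, which senses Gram-positive bacteria upstream of ModSP, had -0.32 ± 0.082 in the authors' deposited table. Toll-4, another family receptor, had -1.26 ± 0.29 from a mean of 45.5 in the authors' deposited table. Gprk2, a kinase reported to promote Toll signalling, had -0.20 ± 0.054, and lwr, the SUMO-conjugating enzyme that acts on Dorsal, had -0.27 ± 0.062 in the authors' deposited table. The kinase gene aPKC had 0.40 ± 0.054 and Sarm, which encodes a TIR-domain protein of axon degeneration, 0.37 ± 0.063 in the authors' deposited table. Both aPKC and Sarm stand on 2 rows; the row of lower mean did not pass for either, and with those rows 11 genes in place of 13 were higher in Dahomey.

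**Figure D4:**
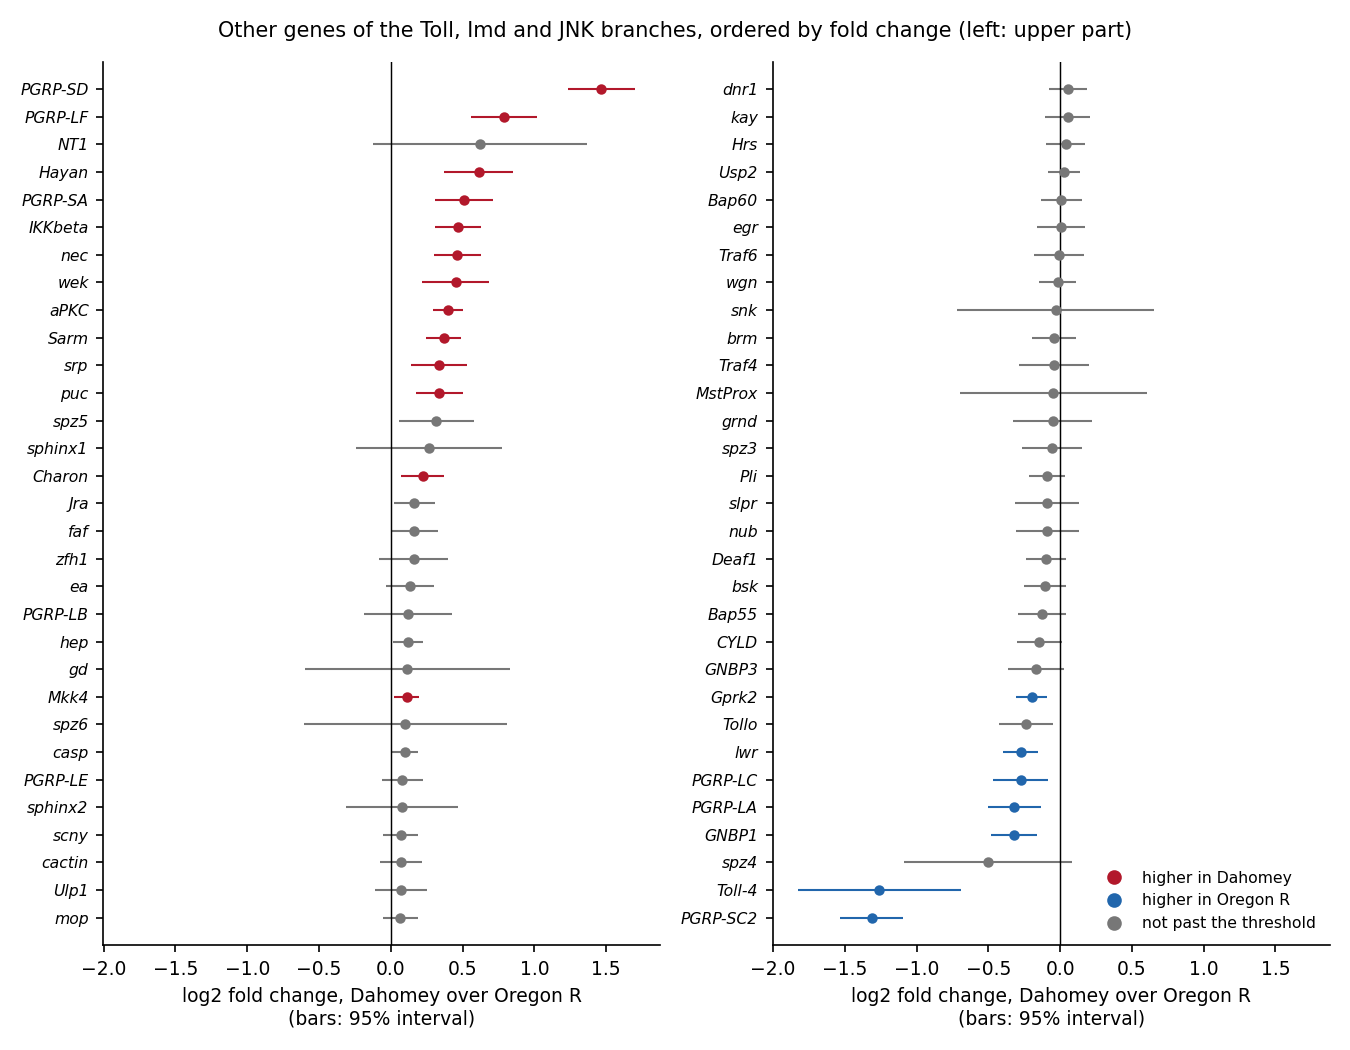
Log2 fold change (horizontal axis, Dahomey over Oregon R) of the 62 further pathway genes with a p-value, ordered from highest (top of the left panel) to lowest (foot of the right panel); bars are 95% intervals. PGRP-SD at 1.47 leads, PGRP-SC2 at -1.31 and Toll-4 at -1.26 close the order, and 42 genes in grey did not pass.

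The peptide genes that these cascades switch on gave few tests. A p-value was missing for 15 of 24 peptide genes in the authors' deposited table; among the remaining 9, Dahomey was higher for 4 and Oregon R for 2, or 66.7% past the threshold beside 29.4% of all rows. The 15 without a p-value had fold changes from -1.79 ± 0.42 for AttA to 2.35 ± 0.35 for Mtk in the authors' deposited table. Def and AttD, a defensin and an attacin gene, had 1.00 ± 0.14 and 1.53 ± 0.35 in the authors' deposited table. In the other direction, CecA2 and BomS2, a cecropin and a Bomanin gene, had -4.20 ± 0.37 and -0.68 ± 0.15 there. The mean of CecA2 was only 42.7, and the cecropin genes did not share its direction. CecB and CecC passed as higher in Dahomey, at 1.01 ± 0.40 and 1.05 ± 0.38, with means of 10.4 and 106. CecA1 had 1.14 ± 0.42 without a p-value.

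Markers of several tissues differed in both directions. Of 34 such markers 21 had a p-value, and 52.4% of these passed, beside 29.4% of all rows. Dahomey was higher for 6 and Oregon R for 5. Of the fat body markers, the authors' deposited table gave apolpp 0.39 ± 0.11 and FASN1 0.41 ± 0.10, both past the threshold; the larval gene Fbp1 had a mean of 11.4 and did not pass. Lsp2, the fourth fat body marker, had -1.91 ± 0.39 in the authors' deposited table, the opposite sign, with no p-value. The 6 blood cell markers split, with He and srp higher in Dahomey, Pxn higher in Oregon R, and Hml, NimC1 and eater short of the threshold. Of 4 markers each, 1 of the neuron list, Syt1, and 2 of the photoreceptor list, Rh3 and trp, were higher in Oregon R; elav, nSyb, brp, ninaE and ninaC did not pass, and no marker of either list was absent. Among muscle markers Mhc and up were higher in Dahomey, TpnC4 was higher in Oregon R and Act88F had no p-value. The midgut markers LysB, Jon25Bi and Mal-A1 had no p-value, with -8.97 ± 0.17, 3.02 ± 0.21 and -0.02 ± 0.28 in the authors' deposited table. The fourth, alphaTry, had 0.05 ± 0.072 there and did not pass. The part of tissue makeup in the values of psh, Tehao and the others was not tested.

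The genes next to the 11 that passed were read in the order of the BDGP6 annotation, as the next 2 measured genes on each side. Of 43 such neighbours with a p-value, 13 passed, or 30.2%, beside 29.4% of all rows, and 8 of the 13 had the sign of the signalling gene beside them. Mettl4 and CG14907, next to modSP, share all their values, as genes counted on the same reads would. Next to psh, its paralog Hayan, a protease of melanization and Toll signalling 714 bases away on the same strand, had 0.61 ± 0.12 in the authors' deposited table (adjusted p = 6.14e-06, authors' DESeq2 test); it was named after its value was seen. On the other side of psh, CG15046 did not pass and CG15044 had 1.03 ± 0.19 in the authors' deposited table. Whether psh and Hayan share reads by similarity was not tested. Exons on the other strand cover 36.2% of the Hayan exons.

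Next to trbd, Unc-115a, an actin-binding protein gene 578 bases away on the same strand, went the other way, at 2.27 ± 0.084 at a mean of 41619 in the authors' deposited table. The gene beyond Unc-115a, CG32939, also went the other way, at 0.98 ± 0.082 in the authors' deposited table. On the far side of trbd, dmt and hyd did not pass. Next to Toll-7, the odorant-binding protein gene Obp56h, 10373 bases away, had -2.17 ± 0.21 in the authors' deposited table. The span of Tehao overlaps that of CG42784 on the same strand, a gene that had -0.03 ± 0.084 in the authors' deposited table and did not pass.

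**Figure D5:**
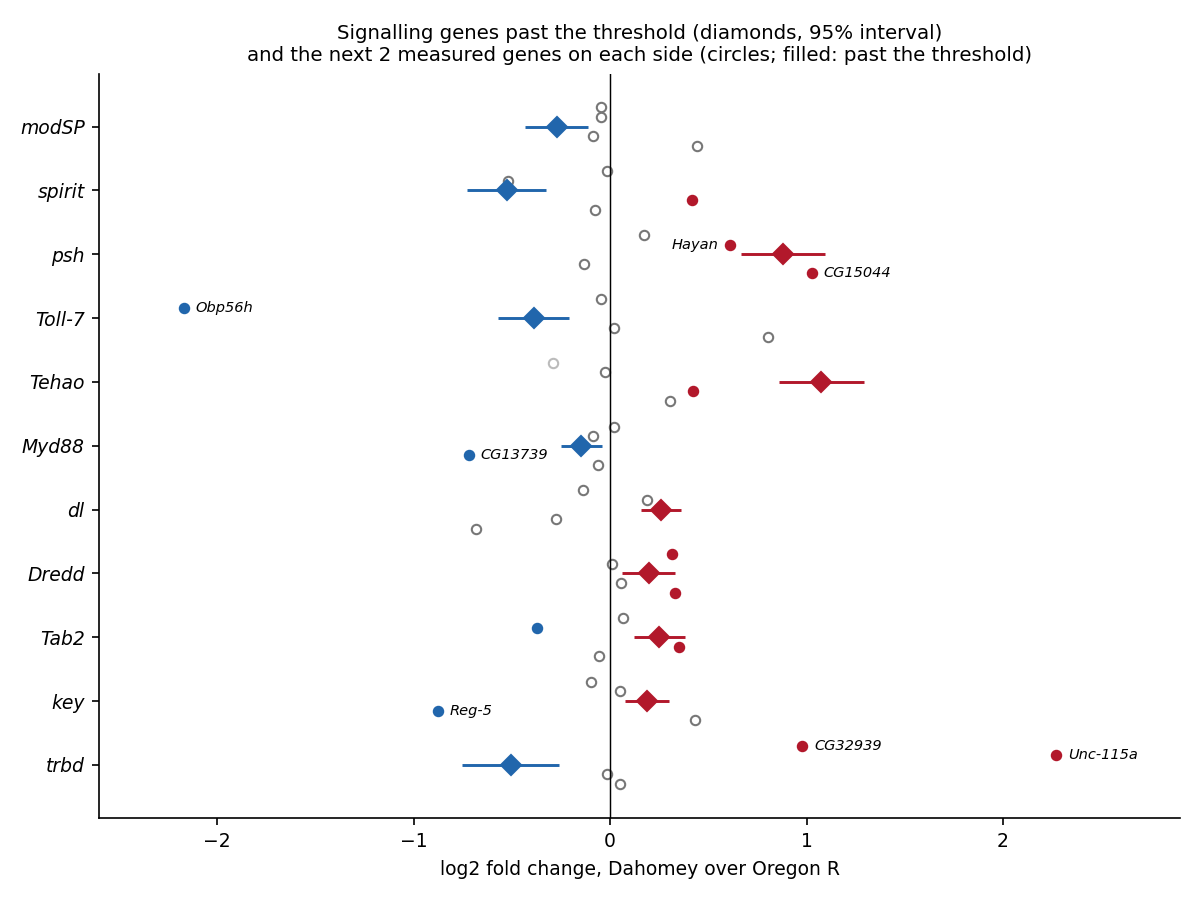
Log2 fold change (horizontal axis, Dahomey over Oregon R) of the 11 signalling genes past the threshold (diamonds, with 95% intervals) and of the next 2 measured genes on each side (circles, filled where past the threshold, lighter outline where there is no p-value). Around psh at 0.88, Hayan had 0.61 and CG15044 had 1.03; Unc-115a at 2.27 lies opposite trbd at -0.51.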

How the data were processed

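The submitters' processing notes name TopHat2 2.0.7, DESeq2, bcl2fastq and FastQC, and build BDGP5; how reads were counted, with what annotation and strand setting, was not given in the sources used here. Sequencing was stated as 90000000 reads per library by the submitters. Per the file headers, each deposited row holds a mean signal in normalized counts, a log2 fold change with its SE (entered as a score), and a p-value before and after adjustment. The deposited p-value equals the 2-sided Wald p to within 4.1e-15. SE never exceeds 0.42, so fold changes may be shrunken and low genes understated. A call is the authors' adjusted p under 0.05, since the table holds no counts per library. The 916 rows with a mean above 0 and no p-value have no call. Why their p-value is missing is not stated, and their fold changes may rest on a single library.

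IDs were matched to symbols by a gene name table (14367 of 14701). Intervals are 95% normal intervals from the SE. Implied strain means split the deposited mean by the fold change, assuming 4 libraries each with equal weight. Arms, exon lengths and overlaps come from BDGP6, looked up by ID; as the builds differ, no coordinates are given. The genes and lists were chosen with earlier results of these data known. Named genes are all members and tissue markers, 5 per direction of the wider list and 2 of the peptides by smallest p, and neighbours past the threshold with a 2-fold difference. Other neighbours (Hayan, CG15046, CG32939, dmt, hyd, CG42784, Mettl4 and CG14907), AttA, Mtk, CecA1, CecB and CecC were named after their values were seen. The wider list's symbol pkl matched no row. The labels do not say whether a strain's libraries came from separate cultures; the p-values therefore reflect the spread of these samples, which may be technical. Recomputed tests were tested on simulated data; Python 3.11.15, numpy 2.4.6, pandas 2.3.3 and scipy 1.17.1 were used. A promoter motif search was not run.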

Additional observations from a re-analysis of the deposited data

How the results depend on the processing

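No paired analysis was possible because the table holds no columns of single libraries; leaving out a library was not possible for the same reason. The counts of 6 genes higher in Dahomey and 5 in Oregon R were the same with adjustment over 1 row per gene and with fold changes centred on the median of all rows. A minimum mean of 100 and the row of lowest mean could not change them, since every matched gene has a higher mean and 1 row. A threshold of 0.01 gave 5 and 4. With SE 1.5 times larger, 3 passed as higher in Dahomey and another 3 as higher in Oregon R: modSP, Myd88, Dredd, Tab2 and key no longer passed, by the construction of that alternative, and the wider list had 9 higher in Dahomey and 3 in Oregon R. Requiring a 1.5-fold difference left 2 higher in Dahomey and 0 in Oregon R. Without SPE, Tehao and POSH, whose exons are overlapped over more than 5% of their length (an alternative chosen after seeing the data), 5 and 5 passed.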
